A study of Mus musculus with 8 samples.

Results

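The genes described are the G1 cyclins, the kinases Cdk4 and Cdk6 and the Rb family of mouse, which together carry a cell from quiescence to the point where DNA replication is set to begin. They were taken by symbol: Ccnd1, Ccnd2, Ccnd3, Ccne1, Ccne2, Cdk4, Cdk6, Rb1, Rbl1 and Rbl2. These 10 genes are among 15096 named genes on the array, and 11 of the 21779 gene probes belong to them, with 2 probes for Ccnd2 and 1 for each other gene. The cells were of the mouse T cell line CTL-EN and expressed the human beta common chain of the GM-CSF receptor, either as wild type or with the serine-to-glycine change Ser585Gly. Both populations were held for 12 h without growth factor in RPMI medium with 0.5% serum (0 h), and human GM-CSF at 50 ng/mL was then given for a further 12 h (12 h). Total RNA from the 4 states was hybridised to 8 2-colour arrays that form a square. On 2 of its 4 edges Ser585Gly was set against wild type, once at 0 h and once at 12 h (the mutation edges), and on the others each population at 12 h was set against itself at 0 h (the time edges). Each edge was run in 2 dye orientations. The Ser585Gly or later RNA carried Cy5 in replicate 1 of an edge and Cy3 in replicate 2. The sources used here do not give what drove the introduced chain, or whether a population was 1 clone or a pool. No array held cells kept for the second 12 h without GM-CSF, so GM-CSF and time in culture cannot be told apart in the 12 h response. In RNA from whole cultures, fewer cells that express a gene and less RNA per cell cannot be told apart either.

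D-type cyclins bind Cdk4 or Cdk6, and these kinases phosphorylate the Rb family, the pocket proteins pRb (Rb1), p107 (Rbl1) and p130 (Rbl2), which hold E2F transcription factors in check. Released E2F raises E-type cyclins, which drive Cdk2 and push phosphorylation further. In quiescent cells p130 is the abundant pocket protein, and in T cells the signals of growth factor receptors are known to raise cyclins D2 and D3.

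All values below are log2 ratios, turned so that a positive value means higher in Ser585Gly or higher at 12 h. A fitted ratio is given with its standard error (SE) from 1 limma model over all 8 arrays after global loess, the same curve for the whole array. Calls are at an adjusted p under 0.05 (two-sided, Benjamini-Hochberg over 21779 probes). Dye swaps are read here as technical repeats, so p-values measure the spread between hybridisations only, and the adjusted p with dye-swap pairs averaged is given where it ends the call of a named gene. Every member probe read above the 95th percentile of empty wells in 16 of 16 channels, and the brightness percentile among all gene probes ran from 37.3 for Ccnd1 to 99.0 for Cdk4. Of the T cell markers 14 of 16 read above the 95th percentile of empty wells, with Cd4 and Gzmb below it. By the same measure 5 of 5 B cell, 7 of 7 myeloid, 3 of 3 erythroid, 5 of 5 mast cell and 5 of 5 fibroblast markers were also above it, so this reading does not tell cell types apart. Some T cell markers moved with the groups, named here after their values were seen. Between populations Ptprc, the CD45 gene, was lower in Ser585Gly at 0 h (−1.59, adjusted p = 0.000543) and at 12 h (−1.73, adjusted p = 0.000548), and Prf1, the perforin gene, was lower at 12 h (−0.95, adjusted p = 0.0121). For time 2 of 16 T cell markers were higher and 2 lower in wild type, beside 9.46% of all probes called. In Ser585Gly 1 was higher and 2 lower, beside 10.5%. With pairs averaged 2 passed in each population, beside 4.91% and 6.17% of all probes. The T cell receptor subunits Cd3e (−0.84 and −0.90) and Cd3g (−0.71 and −0.72) were lower in both. Lat was higher in both (0.49 and 0.49), and Prf1 was higher in wild type (0.55). These higher calls were not met with pairs averaged (adjusted p = 0.0678 and 0.0627 for Lat and 0.0538 for Prf1). Of the other markers Hba-a1, a hemoglobin gene, passed for time (−0.45 and −0.49), and neither call was met with pairs averaged or print-tip loess. The part of these genes in the results below was not tested.

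One array stands apart and bears on several members. Probes are printed in 48 blocks, and on replicate 1 of the 0 h mutation edge the block medians had a standard deviation (SD) of 0.374, against 0.0931 to 0.149 on the other 7 arrays. The lowest block medians there were in block rows 2 to 4, down to −1.003, and the highest was 0.40. The second Ccnd2 probe and Rbl1 lie in a block at −1.003, Ccne1 in one at −0.81 and Ccnd3 in one at −0.53. Rbl2 lies in a block at −0.38 and Ccne2 in one at −0.36, while the blocks of Rb1, Ccnd1, Cdk4, Cdk6 and the brighter Ccnd2 probe were between −0.12 and 0.29. Print-tip loess fits a curve to each block and so centres every block near 0. The SD on that array went to 0.0219, a fall that this centring fixes in advance. The correlation of the dye swaps of that edge across probes went from 0.124 to 0.350. Values with print-tip loess, and without that array, are therefore given beside each result they bear on.

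**Figure D1:**
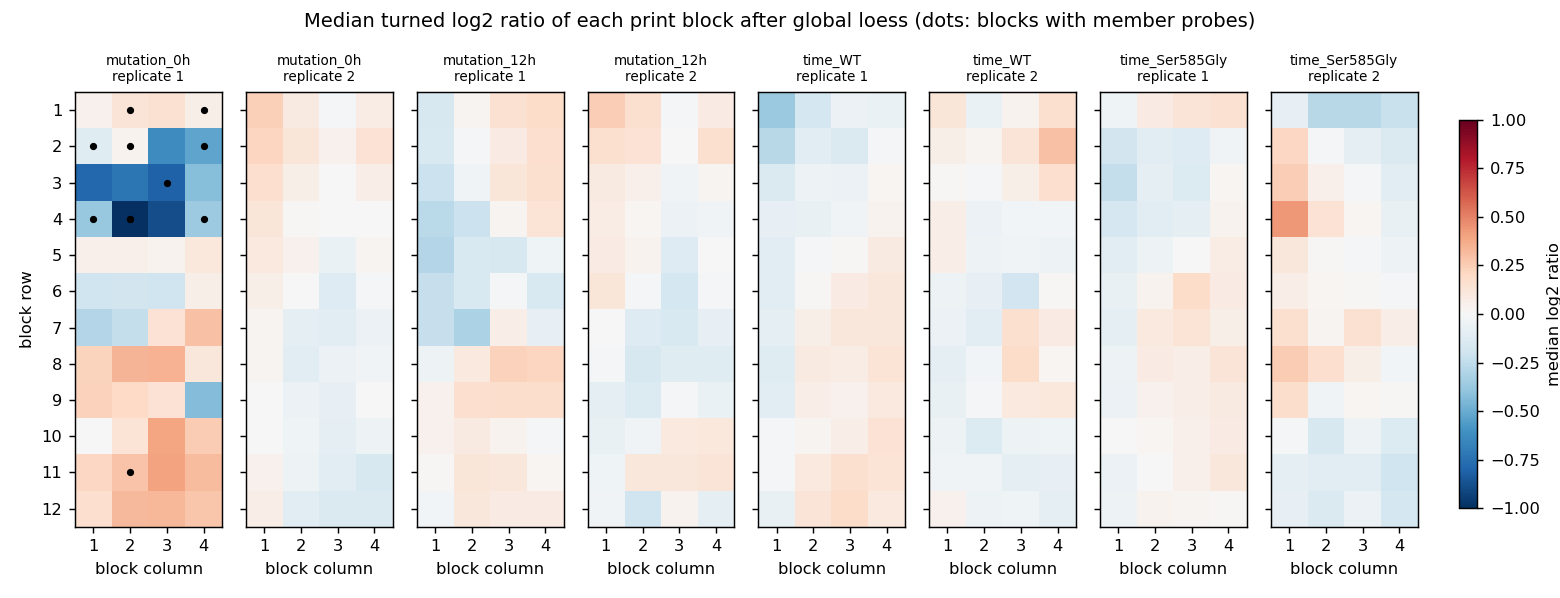
Median turned log2 ratio (colour) of each of 48 print blocks on the 8 arrays after global loess, with block row on the y axis and block column on the x axis, and dots on the blocks that hold member probes. Replicate 1 of the 0 h mutation edge has a run of low blocks in rows 2 to 4, down to −1.003, that the other 7 arrays do not show.

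After 12 h with GM-CSF, the D cyclins Ccnd2 and Ccnd3 and the kinase Cdk6 were higher and the pocket protein gene Rbl2 was lower in both populations, while Ccnd1 and Cdk4 did not pass in either. In wild type 4 of 10 members passed, 3 higher and 1 lower, beside 9.46% of all probes (5.43% higher and 4.03% lower). In Ser585Gly 7 of 10 passed, 5 higher and 2 lower, beside 10.5% of all probes (5.73% higher and 4.72% lower); Ccne1, Ccne2 and Rb1 were the additional calls. The median log2 ratio of the members was 0.10 in wild type and 0.40 in Ser585Gly, against −0.01 and 0.01 over all probes. With pairs averaged 2 members passed in wild type and 6 in Ser585Gly, beside 4.91% and 6.17% of probes. With print-tip loess 5 and 7 passed, beside 18.7% and 19.6% of probes, and the same numbers passed without replicate 1 of the 0 h mutation edge, beside 15.2% and 15.7%.

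**Figure D2:**
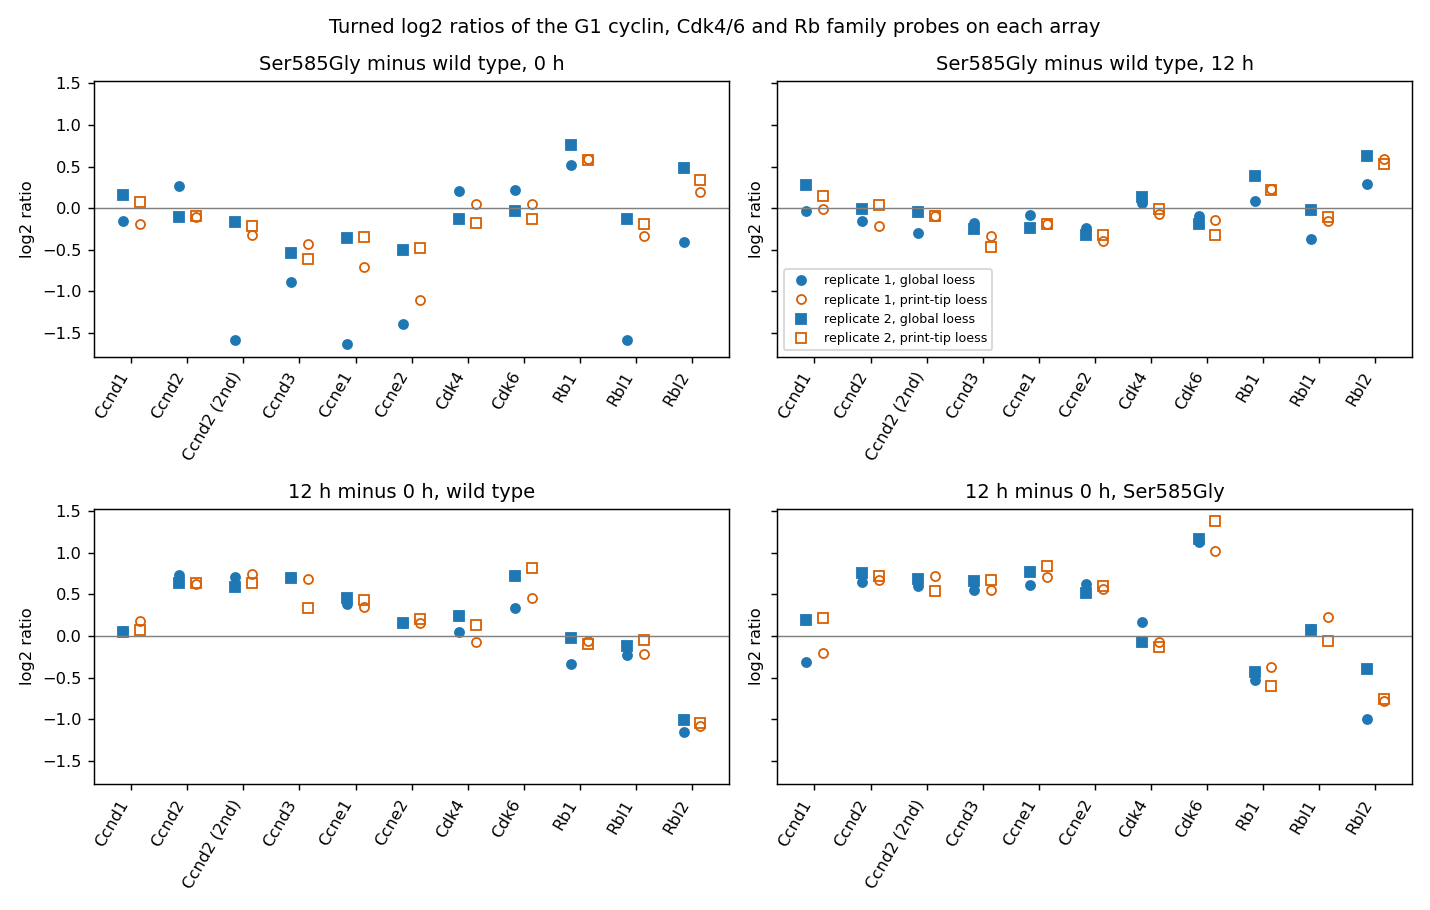
Turned log2 ratio (y axis) of each member probe (x axis) on both arrays of each edge, with filled symbols for global loess and open symbols for print-tip loess, circles for replicate 1 and squares for replicate 2. In the 12 h panels both arrays of each edge lie above 0 for Ccnd2, Ccnd3, Ccne1 and Cdk6 and below 0 for Rbl2, and in the 0 h mutation panel the replicate 1 values of Ccne1, Rbl1 and the second Ccnd2 probe lie near −1.6 after global loess.

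Among the D cyclins, the partners that activate Cdk4 and Cdk6, Ccnd2 had direct ratios of 0.73 and 0.64 for time in wild type and 0.65 and 0.75 in Ser585Gly. All 4 arrays were high and close together. The fitted ratio was 0.73 ± 0.11 in wild type (adjusted p = 0.00599, a 1.66-fold rise) and 0.66 ± 0.11 in Ser585Gly (adjusted p = 0.00804). The 12 h call needed both arrays of its own edge: the adjusted p was 0.0567 without replicate 1 and 0.0659 without replicate 2 in wild type, and 0.0993 and 0.0799 in Ser585Gly. The second Ccnd2 probe, on another part of the slide, had 0.70 and 0.58 in wild type and 0.60 and 0.68 in Ser585Gly, so both probes were high on all 4 direct arrays. It did not pass after global loess (0.47 ± 0.23 and 0.82 ± 0.23, adjusted p = 0.260 and 0.0557), and passed in both populations with print-tip loess (0.63 and 0.69, adjusted p = 0.00181 and 0.00110).

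Ccnd3, which encodes cyclin D3, had ratios of 0.71 and 0.70 for time in wild type and 0.56 and 0.66 in Ser585Gly. It rose by 0.55 ± 0.13 (adjusted p = 0.0369) and by 0.76 ± 0.13 (adjusted p = 0.0101), and by 0.50 and 0.62 with print-tip loess. The wild-type call was not met with pairs averaged (adjusted p = 0.101), and was lost without replicate 1 or 2 of its own edge (0.262 and 0.282), replicate 1 of the Ser585Gly time edge (0.0671) or replicate 2 of either mutation edge (0.0746 at 0 h and 0.0714 at 12 h). The Ser585Gly call was lost without replicate 1 of that edge (0.0789). Ccnd1, the gene of cyclin D1 and the dimmest member, gave 0.06 and 0.05 in wild type and −0.31 and 0.19 in Ser585Gly. Its arrays lie around 0 on both edges. The fitted ratios were 0.00 ± 0.11 in both, with 95% intervals of −0.25 to 0.24 and −0.25 to 0.25. Its signal was weak: Cy3 on replicate 1 of the wild-type time edge read 635, against 608 for the 95th percentile of empty wells. Whether this probe would show a change in Ccnd1 RNA was not tested.

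The kinases that the D cyclins activate differed in their readings. Cdk4, the brightest member, had ratios of 0.05 and 0.24 in wild type and 0.16 and −0.07 in Ser585Gly. Cdk6 had 0.33 and 0.72 in wild type and 1.13 and 1.16 in Ser585Gly, above every Cdk4 value. The fitted ratio of Cdk4 was 0.10 ± 0.11 and 0.09 ± 0.11 (95% intervals −0.15 to 0.36 and −0.17 to 0.34), and that of Cdk6 was 0.74 ± 0.17 (adjusted p = 0.0315) and 0.93 ± 0.17 (adjusted p = 0.0118). The difference between both genes was not tested. In wild type the Cdk6 call ended with pairs averaged (adjusted p = 0.0828), with direct arrays only (0.0905, an alternative chosen after seeing the data) and without any 1 array except replicate 1 of the 0 h mutation edge and replicate 1 of time in wild type (0.0572 to 0.193). In Ser585Gly it was lost without replicate 1 or 2 of its own edge (0.169 and 0.107). Cdk6 also closes the square poorly: going round the 4 edges its direct ratios left a gap of 0.86, and 0.76 with print-tip loess, against a 95th percentile of 0.75 and 0.58 over all probes.

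The promoters of both kinases are shown because they hold different numbers of CACGTG, the E-box that Myc and Mycn bind with Max. The windows run from 250 bases before to 50 after the start, 5′ to 3′, in RefSeq annotation of GRCm38.p6, and capitals mark CACGTG. Cdk4 is at chr10:127063285-127063584 on the plus strand and Cdk6 at chr5:3343643-3343942 on the plus strand.
Cdk4: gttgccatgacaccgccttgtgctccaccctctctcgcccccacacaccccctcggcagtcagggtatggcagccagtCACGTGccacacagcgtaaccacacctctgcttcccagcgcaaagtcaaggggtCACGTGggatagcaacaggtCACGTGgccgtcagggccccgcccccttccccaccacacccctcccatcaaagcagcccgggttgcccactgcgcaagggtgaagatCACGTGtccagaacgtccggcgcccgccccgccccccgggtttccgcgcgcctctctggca
Cdk6: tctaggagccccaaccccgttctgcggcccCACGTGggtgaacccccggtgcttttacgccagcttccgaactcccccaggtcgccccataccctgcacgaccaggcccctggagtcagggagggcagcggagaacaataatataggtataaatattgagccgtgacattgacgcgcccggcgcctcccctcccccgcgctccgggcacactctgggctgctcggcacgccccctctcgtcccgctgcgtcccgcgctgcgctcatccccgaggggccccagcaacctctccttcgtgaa
Cdk4 has 4 matches, the nearest at −11 to −6 from the start, and Cdk6 has 1 at −220 to −215. Of 32851 promoter windows, 7.15% hold CACGTG, which reads the same on both strands. Mycn was the larger of the Myc family responses at 2.31 in wild type and 2.40 in Ser585Gly, and Myc was at 0.27 (adjusted p = 0.215) and 0.67 (adjusted p = 0.00972). A match is a run of letters and not a measured binding site.

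The E cyclins, which activate Cdk2 once E2F is free, passed for time in Ser585Gly and not in wild type after global loess, and the difference between populations did not pass. Ccne1 had ratios of 0.38 and 0.45 in wild type and 0.62 and 0.77 in Ser585Gly. Ccne2 had 0.16 and 0.15 in wild type and 0.62 and 0.51 in Ser585Gly. The Ser585Gly arrays lie above the wild-type arrays for both genes. How often the arrays of other probes separate like this was not counted. The fitted rise in Ser585Gly was 0.83 ± 0.21 for Ccne1 (adjusted p = 0.0376) and 0.63 ± 0.16 for Ccne2 (adjusted p = 0.0387). Fitted ratios in wild type were 0.28 ± 0.21 (adjusted p = 0.479) and 0.09 ± 0.16 (adjusted p = 0.777). With the deposited value table both genes passed in wild type (0.38 and 0.24, adjusted p = 0.00287 and 0.0477). With print-tip loess Ccne1 also passed in wild type (0.40, adjusted p = 0.00898), as it did without replicate 1 of the 0 h mutation edge (0.43, adjusted p = 0.0181), while Ccne2 did not with print-tip loess (0.17, adjusted p = 0.282). In Ser585Gly both calls were kept without either array of the 0 h mutation edge and lost without any of the other 6 (adjusted p = 0.0629 to 0.222 for Ccne1 and 0.0724 to 0.291 for Ccne2), and with direct arrays only (0.136 and 0.138). The interaction, the Ser585Gly response minus the wild-type response, was 0.56 ± 0.24 for Ccne1 (adjusted p = 0.707) and 0.54 ± 0.18 for Ccne2 (adjusted p = 0.627).

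Rbl2, which encodes p130, was the member furthest from 0 for time in wild type, with ratios of −1.16 and −1.01 there and −1.004 and −0.40 in Ser585Gly. All 4 arrays were low, with replicate 2 in Ser585Gly the least so. Rbl2 fell by 1.09 ± 0.12 in wild type (adjusted p = 0.00151, a 2.13-fold lower level) and by 0.69 ± 0.12 in Ser585Gly (adjusted p = 0.00954). The wild-type call held when each of the 8 arrays was left out in turn (adjusted p up to 0.0341). The Ser585Gly call was lost without replicate 1 or 2 of its own edge (0.138 and 0.0583) and with no dye term (0.0529). With print-tip loess the Ser585Gly arrays drew together at −0.78 and −0.76, beside −1.08 and −1.04 in wild type. The interaction was 0.40 ± 0.14 (adjusted p = 0.648) and 0.29 with print-tip loess (adjusted p = 0.194).

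Rb1, the gene of pRb, had ratios of −0.34 and −0.03 for time in wild type and −0.54 and −0.43 in Ser585Gly. It fell by 0.51 ± 0.09 in Ser585Gly (adjusted p = 0.0112) and was at −0.16 ± 0.09 in wild type (adjusted p = 0.348). The Ser585Gly call was not met with pairs averaged (adjusted p = 0.0585), with direct arrays only (0.0609) or without replicate 1 or 2 of its own edge (0.0928 and 0.0882). The interaction was −0.35 ± 0.11 (adjusted p = 0.573). Rbl1, which encodes p107, a pocket protein that builds up in cycling cells, had −0.23 and −0.12 in wild type and 0.08 and 0.07 in Ser585Gly. None of its fitted ratios passed for time (−0.28 ± 0.20 and 0.17 ± 0.20, adjusted p = 0.469 and 0.683).

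The promoters of the p107 and p130 genes are shown because Rbl2 passed for time and Rbl1 did not, a difference between the genes that was not tested. Capitals mark the only match found to the motifs searched, and the windows and source are as above. Rbl1 is at chr2:157204485-157204784 on the minus strand and Rbl2 at chr8:91069807-91070106 on the plus strand.
Rbl1: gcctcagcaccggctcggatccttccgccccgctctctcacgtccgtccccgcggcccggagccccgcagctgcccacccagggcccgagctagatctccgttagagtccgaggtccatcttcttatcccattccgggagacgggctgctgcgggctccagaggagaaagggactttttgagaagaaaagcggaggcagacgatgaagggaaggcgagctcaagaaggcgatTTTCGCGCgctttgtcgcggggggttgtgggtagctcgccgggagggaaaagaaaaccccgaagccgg
Rbl2: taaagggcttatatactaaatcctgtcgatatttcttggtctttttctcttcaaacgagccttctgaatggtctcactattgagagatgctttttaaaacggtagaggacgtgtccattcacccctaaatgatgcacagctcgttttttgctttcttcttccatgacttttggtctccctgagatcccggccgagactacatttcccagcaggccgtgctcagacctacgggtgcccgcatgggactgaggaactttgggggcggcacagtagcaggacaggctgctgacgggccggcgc
The Rbl1 window holds TTTCGCGC, an E2F sequence, at −18 to −11 from the start, and the Rbl2 window holds none of the motifs. The search used both strands for E2F (TTTCCCGC, TTTCGCGC, TTTGCCGC and TTTGGCGC), FoxO (GTAAACA), STAT (TTCNNNGAA) and CACGTG, none of which overlap in these windows. Over all 32851 windows the shares were 2.265% for E2F, 3.65% for FoxO and 8.298% for STAT. In all, 6 members had 7 promoter windows, with 2 for Ccnd3. The other matches were the Cdk4 and Cdk6 E-boxes and 1 FoxO match in the upstream Ccnd3 window.

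**Figure D3:**
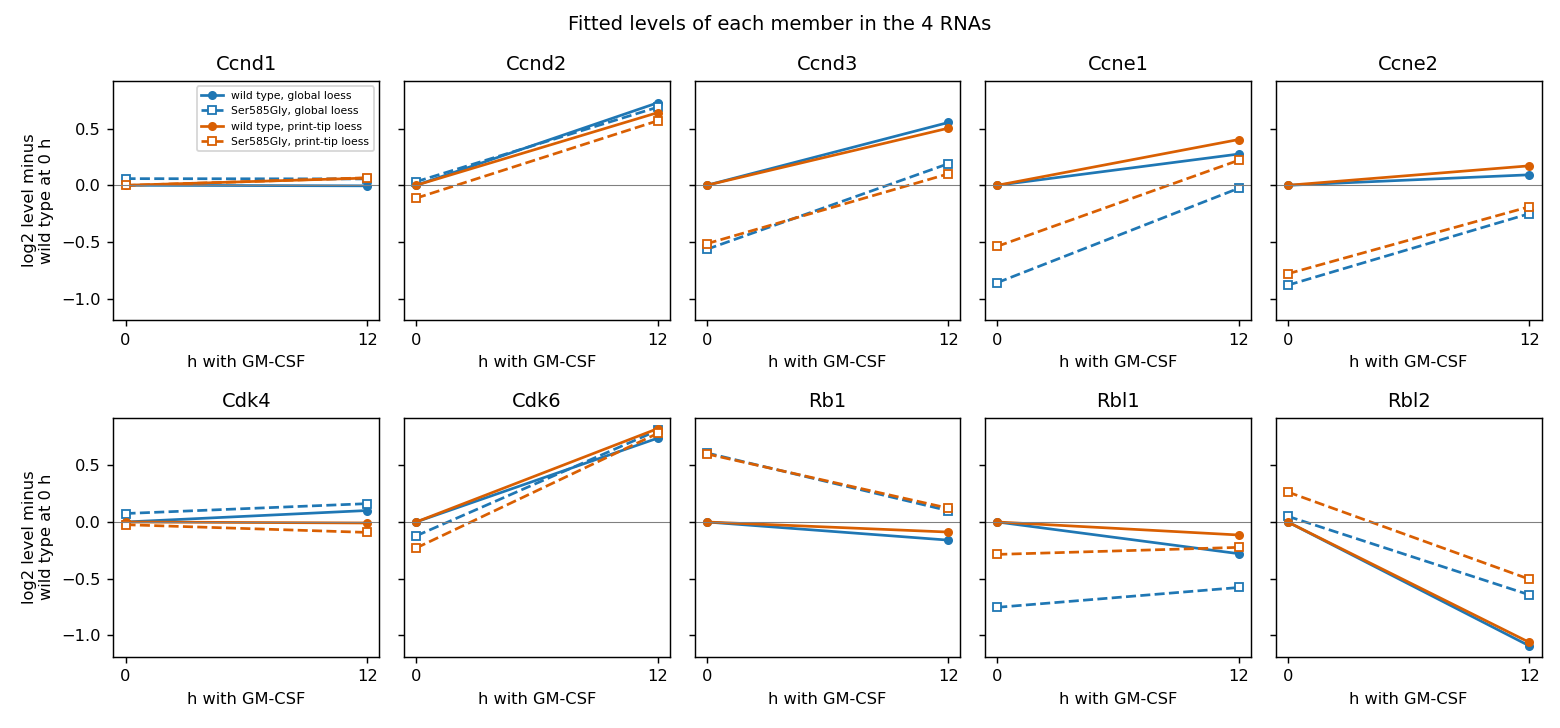
Fitted log2 level of each member relative to wild type at 0 h (y axis) against hours with GM-CSF (x axis), with solid lines for wild type, dashed lines for Ser585Gly, blue for global loess and orange for print-tip loess. Ccnd2 and Cdk6 have nearly the same levels in both populations at 12 h (0.73 and 0.69 for Ccnd2, 0.74 and 0.81 for Cdk6 after global loess), and Rbl2 ends at −1.09 in wild type and −0.64 in Ser585Gly.

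Before GM-CSF, Ser585Gly cells had a lower level of Ccne2 and a higher level of Rb1 than wild type, and these were the members that passed: 2 of 10, beside 4.07% of all probes (2.07% higher and 2% lower). The median ratio of the members was −0.05, against 0.00 over all probes. This is the edge with the array that stands apart. With print-tip loess 5 members passed, beside 9.37% of probes, with Ccnd3 and Ccne1 also lower and Rbl2 also higher. Without that array 1 passed, Rb1, beside 1.49% of probes, and with pairs averaged 1 passed, Ccne2, beside 1.27%.

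Ccne2 had ratios of −1.39 and −0.50 for the mutation at 0 h. Both arrays were low, and replicate 1, where the gene lies in a block at −0.36, was the lower. The fitted ratio was −0.88 ± 0.16 (adjusted p = 0.0228), −0.78 with print-tip loess (adjusted p = 0.00478) and −0.56 without replicate 1 (adjusted p = 0.0574). The call was also lost without replicate 2 of this edge (−1.10, 0.0625), replicate 2 of the 12 h mutation edge (0.0607), replicate 2 of the wild-type time edge (0.0721) or replicate 1 of the Ser585Gly time edge (0.0737), and with direct arrays only (0.0610). Ccne1 had −1.63 and −0.36, or −0.71 and −0.34 with print-tip loess. It was at −0.86 ± 0.21 (adjusted p = 0.0571), passed with print-tip loess (−0.54, adjusted p = 0.00605) and was at −0.40 without replicate 1 (adjusted p = 0.137).

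Ccnd3 had ratios of −0.89 and −0.54 at 0 h, and −0.44 and −0.61 with print-tip loess, all low. Its fitted ratio was −0.56 ± 0.13 (adjusted p = 0.0563), passed at −0.52 with print-tip loess (adjusted p = 0.00893) and was −0.36 without replicate 1 (adjusted p = 0.229). The other D cyclins did not pass, with Ccnd2 at 0.03 ± 0.11 and Ccnd1 at 0.06 ± 0.11. The second Ccnd2 probe had −1.59 on replicate 1, in the block at −1.003, and −0.17 on replicate 2. Its fitted −0.70 ± 0.23 (adjusted p = 0.123) went to −0.21 with print-tip loess and −0.19 without replicate 1. Cdk4 was at 0.07 ± 0.11 and Cdk6 at −0.12 ± 0.17, and neither passed under any alternative tried.

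Of the pocket protein genes, Rb1 had ratios of 0.51 and 0.76 at 0 h and 0.59 and 0.58 with print-tip loess. Both arrays were high under both settings. It was higher in Ser585Gly by 0.61 ± 0.09 (adjusted p = 0.0130), by 0.60 with print-tip loess and by 0.59 without replicate 1 (adjusted p = 0.0493). The call was not met with pairs averaged (adjusted p = 0.0672), without replicate 2 of this edge (0.103) or with direct arrays only (0.0554). Rbl1 had −1.58 and −0.13, and the value on replicate 1 lies in the block at −1.003. Its fitted −0.75 ± 0.20 (adjusted p = 0.0806) went to −0.29 with print-tip loess (adjusted p = 0.0772) and −0.31 without replicate 1 (adjusted p = 0.265). Rbl2 had −0.40 and 0.49, on opposite sides of 0, and 0.19 and 0.33 with print-tip loess. It was at 0.05 ± 0.12 (adjusted p = 0.831) and passed with print-tip loess (0.26, adjusted p = 0.0423).

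**Figure D4:**
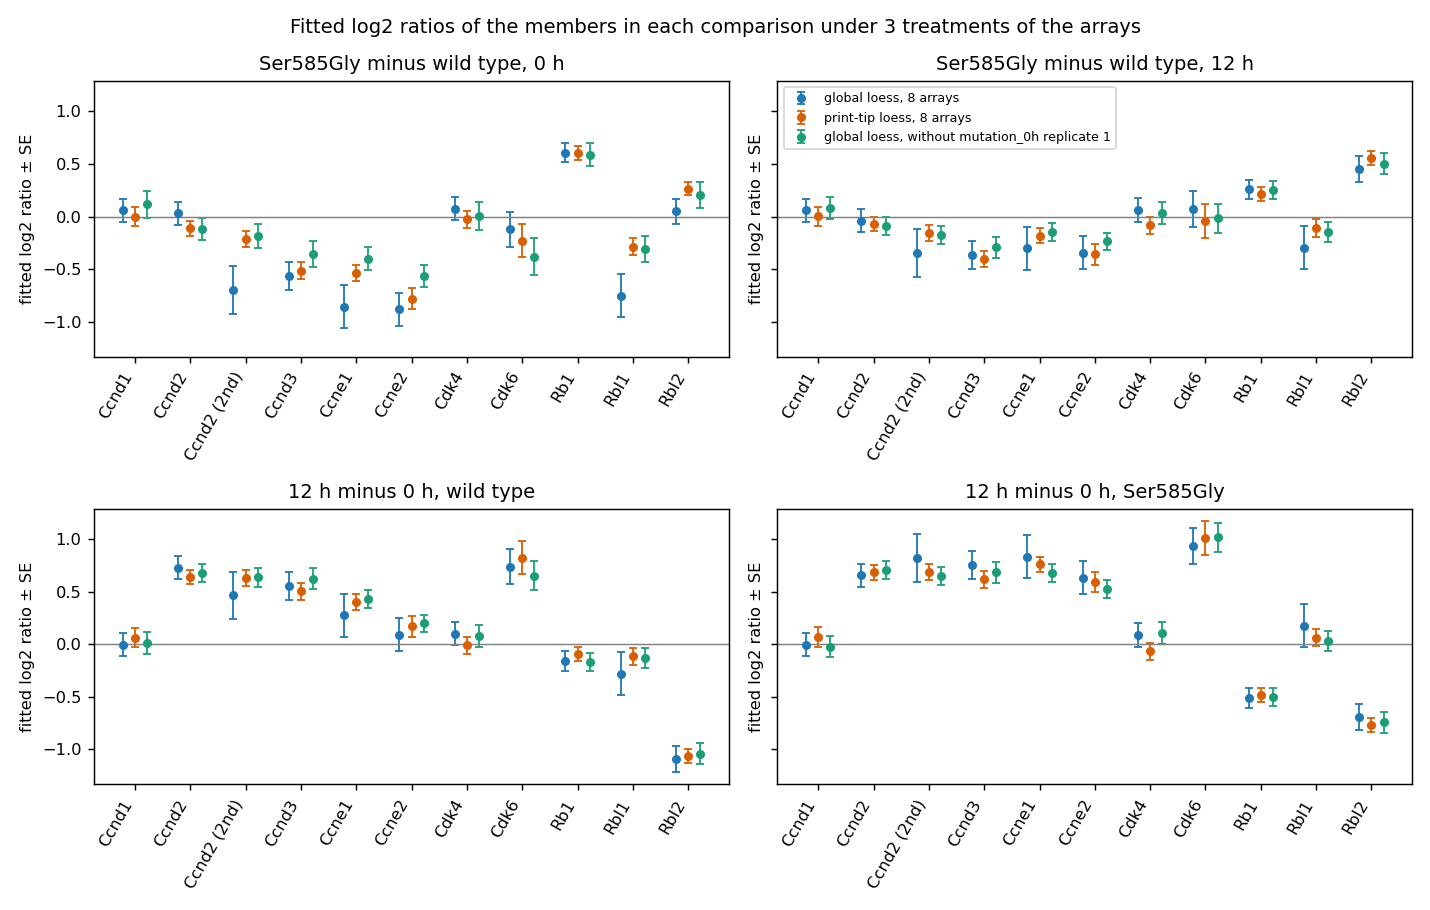
Fitted log2 ratio with its SE (y axis) of each member probe (x axis) in the 4 comparisons, with global loess on 8 arrays in blue, print-tip loess in orange and global loess without replicate 1 of the 0 h mutation edge in green. The settings differ most in the 0 h mutation panel, where the second Ccnd2 probe moves from −0.70 to −0.21 and Rbl1 from −0.75 to −0.29 with print-tip loess, while Rb1 stays between 0.59 and 0.61.

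After 12 h with GM-CSF, none of the 10 members passed between the populations (limma, global loess), beside 1.72% of all probes, and 3 had an unadjusted p under 0.05: Ccnd3, Rb1 and Rbl2. With pairs averaged none passed, beside 0.712% of probes. With print-tip loess 2 passed, Rbl2 and Ccnd3, beside 4.56% of probes. Rbl2 had ratios of 0.29 and 0.63, or 0.59 and 0.53 with print-tip loess, all high. It was at 0.45 ± 0.12 (adjusted p = 0.139), passed with print-tip loess (0.56, adjusted p = 0.00351) and passed without replicate 1 of the 0 h mutation edge (0.50, adjusted p = 0.0470), as the 1 member that did so, beside 2.88% of probes. Ccnd3 was at −0.36 ± 0.13 (adjusted p = 0.296) and passed with print-tip loess (−0.40, adjusted p = 0.0329). Rb1 was at 0.26 ± 0.09 (adjusted p = 0.277). Ccne1 was at −0.30 ± 0.21, Ccne2 at −0.34 ± 0.16 and Rbl1 at −0.30 ± 0.20, and Ccnd1, Ccnd2, Cdk4 and Cdk6 were between −0.04 and 0.07.

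For the difference between the 12 h responses of both populations, no member passed (limma), beside 0.0551% of all probes, which is 12 probes. An unadjusted p under 0.05 was reached by 4 members: Ccne1 (0.56), Ccne2 (0.54), Rbl2 (0.40) and Rb1 (−0.35). None passed with pairs averaged, where 0% of probes did, with print-tip loess (0.225%) or without replicate 1 of the 0 h mutation edge (0.023%). The time comparisons share no direct array, but the joint fit lets both draw on the same arrays of the mutation edges. The intervals leave room for unequal responses: for Ccne2 the unadjusted 95% interval of the difference was 0.12 to 0.95, and for Ccnd2 it was −0.36 to 0.22.

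Lists of other genes of the G1/S pathway were counted in the same fit, beside the shares of all probes given above: 9.46% for time in wild type, 10.5% in Ser585Gly, and 4.07% and 1.72% for the mutation at 0 h and 12 h. In the same order the shares were 15.2%, 15.7%, 1.49% and 2.88% without replicate 1 of the 0 h mutation edge. They were 18.7%, 19.6%, 9.37% and 4.56% with print-tip loess, and 4.91%, 6.17%, 1.27% and 0.712% with pairs averaged. E2F target genes of S phase entry rose in 6 and fell in 0 of 29 measured for time in wild type (median 0.23), and rose in 13 and fell in 1 in Ser585Gly (median 0.36). The largest in wild type were Rfc3 (0.80) and Rfc4 (0.66), subunits of the clamp loader, the helicase subunit Mcm2 (0.68) and Cdc6 (0.75), which brings that helicase to DNA. In Ser585Gly they were Cdc6 (1.38) and further helicase subunits, Mcm4 (1.30), Mcm5 (0.99) and Mcm3 (0.98). The 1 that fell was Gins2 (−0.47), a subunit of the GINS complex that works with that helicase, named after its value was seen, and this call was not met with pairs averaged (adjusted p = 0.0730). Without replicate 1 of the 0 h mutation edge the counts were 11 and 1 in wild type and 13 and 1 in Ser585Gly, and with print-tip loess 12 and 1, and 16 and 1. The shares of all probes called for time were also larger under both settings, as given above. The difference between populations passed for none of the 29 genes.

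Of 7 E2F factors and partners measured, 1 rose and 1 fell in wild type, E2f4 (0.41), a repressor that pairs with p130, and Tfdp2 (−0.58), a dimer partner of E2F. In Ser585Gly 2 rose and 1 fell: Tfdp1 (1.04), the other dimer partner, E2f3 (0.72), an activator, and Tfdp2 (−0.78). The E2f4 call was not met with pairs averaged (adjusted p = 0.101). Without replicate 1 of the 0 h mutation edge 4 rose and 1 fell in Ser585Gly. Of 7 genes for Cdk2 and its activating enzymes, Cdc25a, the phosphatase that activates Cdk2, was the 1 call in each population (0.81 in wild type and 0.82 in Ser585Gly), or 1 of 7 beside 9.46% and 10.5% of all probes. Of 9 genes of ubiquitin ligases for cyclins and p27, Skp2, which marks p27 for destruction, rose by 0.49 and 0.97, and Gsk3b, the kinase that marks cyclin D1, was at −0.38 and −0.43, also past the threshold. With pairs averaged Skp2 did not pass in wild type (adjusted p = 0.0852), and Gsk3b passed in neither population (0.122 and 0.0912). None of 5 genes of MuvB and its partners passed for time in either population (limma, global loess). MuvB is the complex that joins p130 to repress cell cycle genes, and the partners counted were Mybl2 and Foxm1. With print-tip loess Mybl2 passed in both populations (0.35 and 0.43, adjusted p = 0.0124 and 0.00504). Lin37 then passed in wild type (−0.26, adjusted p = 0.0302).

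The CDK inhibitors bear on the same kinases. Cdkn1b, which encodes p27, was at −1.29 in wild type and −1.60 in Ser585Gly, and Cdkn2d, an inhibitor of Cdk4 and Cdk6, at −0.41 and −0.76, all past the threshold. Cdkn2a, whose locus encodes another Cdk4 and Cdk6 inhibitor as well as Arf, rose by 0.48 in wild type and was at 0.17 in Ser585Gly (adjusted p = 0.448). With pairs averaged the wild-type calls of Cdkn2d and Cdkn2a were not met (adjusted p = 0.110 and 0.0976). The sources used here do not say which transcript of that locus the probe reads. In all 1 rose and 2 fell of 7 in wild type, and 0 rose and 2 fell in Ser585Gly, or 0 and 4 without replicate 1 of the 0 h mutation edge. At 0 h 3 were higher in Ser585Gly, Cdkn2a (1.64 ± 0.11), Cdkn2d (0.51) and Cdkn1b (0.46), and 1 was lower, Cdkn2c (−0.70), in all 4 of 7 beside 4.07% of all probes. With pairs averaged the calls of Cdkn2d, Cdkn1b and Cdkn2c were not met (adjusted p = 0.0888, 0.100 and 0.0585). Without replicate 1 of that edge Cdkn2a was the 1 call left, with an adjusted p of 0.00336, and with print-tip loess 4 were higher and 1 lower. Cdkn2a was also the 1 call of the list at 12 h (1.32). Cdkn2c was then at −0.59 (adjusted p = 0.0524). It passed as lower with print-tip loess (−0.55, adjusted p = 0.00614), and also without replicate 1 of the 0 h mutation edge.

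Among 8 genes that signal to the D cyclins, 3 rose in wild type and 4 rose and 1 fell in Ser585Gly. Pim2 (2.72 and 2.17) and Pim1 (0.96 and 0.70), kinases that support growth and survival, and Mycn rose in both populations, and Myc rose in Ser585Gly. Foxo3, a transcription factor of quiescence, fell by 0.47 in Ser585Gly, a call not met with pairs averaged (adjusted p = 0.0786), and was at −0.38 in wild type (adjusted p = 0.0530). Foxo3 was named after its value was seen. Between populations Myc and Pim1 were lower in Ser585Gly at 0 h (−1.18 and −0.60) and at 12 h (−0.77 and −0.85). The other calls of these lists between populations, besides the CDK inhibitors, were Mcm2 (−0.87), Tyms (0.52), which encodes thymidylate synthase, and Cul1 (−0.51), a ligase scaffold, at 0 h, and Mcm2 (−0.56) and Tfdp2 (−0.59) at 12 h. The 0 h calls of Pim1, Tyms and Cul1 were lost without replicate 1 of that edge (adjusted p = 0.125, 0.0651 and 0.0845). With pairs averaged the 0 h calls of Pim1, Tyms and Cul1 were not met either (0.0682, 0.0827 and 0.0873), nor were the 12 h calls of Myc, Mcm2 and Tfdp2 (0.0688, 0.175 and 0.117). Under that setting 5 and 12 E2F targets passed for time in wild type and Ser585Gly, 1 and 3 E2F factors and partners, 1 and 1 genes of the Cdk2 list, 1 and 2 CDK inhibitors, 0 and 1 ligase genes and 3 and 4 upstream genes. At 0 h the calls between populations were 1 CDK inhibitor (Cdkn2a), 1 E2F target (Mcm2) and 1 upstream gene (Myc), and at 12 h 1 CDK inhibitor (Cdkn2a) and 1 upstream gene (Pim1).

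**Figure D5:**
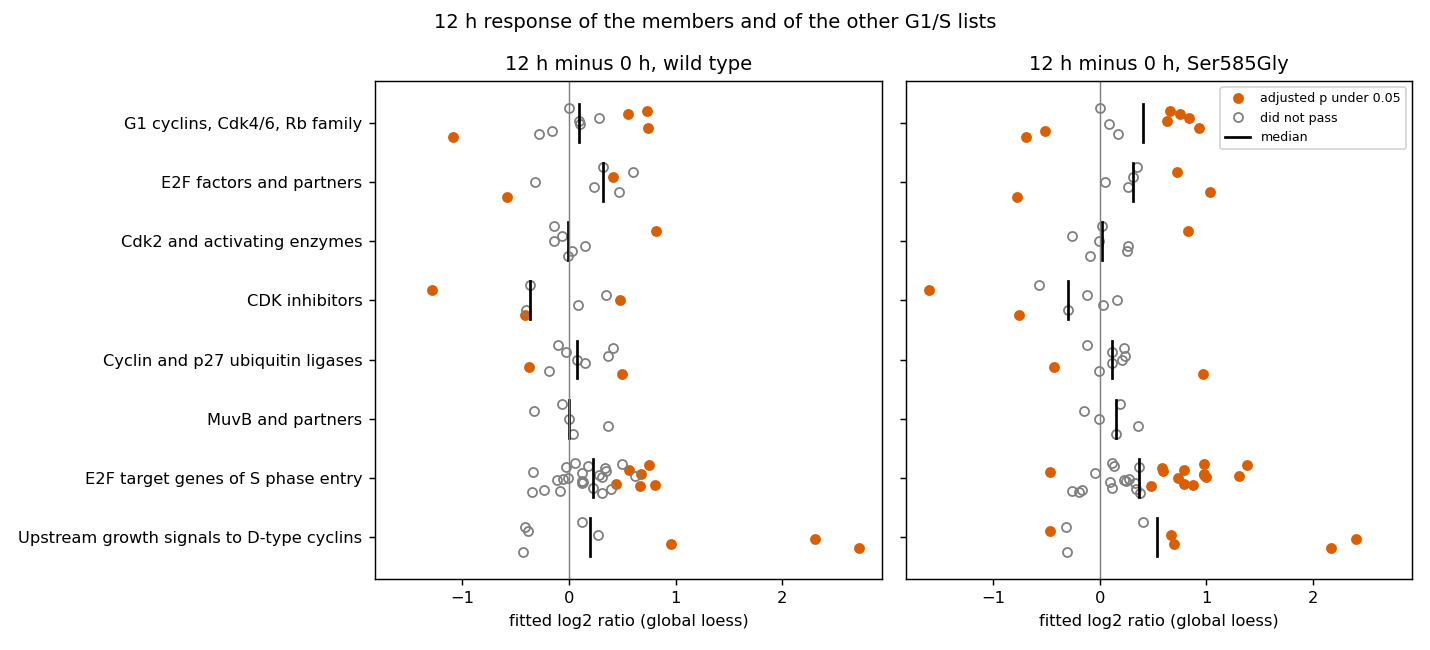
Fitted log2 ratio for 12 h against 0 h (x axis) of the members and of each G1/S list (rows) in wild type (left) and Ser585Gly (right), with filled points at an adjusted p under 0.05, open points for the rest and a bar at the median of each list. Most called E2F targets lie to the right of 0 in both panels, and Cdkn1b is the lowest point in both, at −1.29 and −1.60.

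The genes whose 8 turned ratios lay nearest to those of Rbl2, the member with the smallest adjusted p for time, were Pgam1 (Euclidean distance 0.629), Cyp17a1 (0.684), Atrx (0.690), Siae (0.706) and Plpp3 (0.714). The distance was taken over 8 arrays against 8688 genes above the median brightness, with a median distance of 2.21. The 5 genes were at −0.77 to −1.14 for time in wild type and −0.65 to −0.85 in Ser585Gly.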

How the data were processed

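Gene names rest on a 24-pin print order recovered from the data. With that order 244 empty wells had a median brightness percentile of 1.33, against 47.2 in the deposited order, and ribosomal protein probes (63) had 99.1 against 52.3. For 905 genes with 2 probes, edge ratios correlated between probes at 0.342 to 0.373, against −0.0891 to 0.0860 in the deposited order. Probes were first put on spots of the deposited order by their numbers, with an offset set from the same 8 deposited ratios. The nearest spot by those ratios was that spot for 90.3% of gene probes. It was another spot for the probes of Ccne1, Ccne2, Cdk4, Cdk6 and Rbl2, so these 5 lack that match. The match comes before the 24-pin reordering, so it is no check of the recovered places for any probe. Members and lists were chosen with earlier results of these data known. The scanner files hold spot and local background intensity for both dyes, per the file headers. Array medians ran from 631 to 946 (Cy5) and 795 to 1105 (Cy3). Precision is limited by how many arrays there are. The deposited table holds the authors' log2 ratios of Cy5 over Cy3; limma is the tool the submitters' processing notes name, and the sources used here give no further steps. Here intensities were corrected by normexp (offset 50) and global loess (span 0.3, no weight on spots other than gene probes). limma 3.58.1 in R 4.3.3 fitted terms for mutation, time, interaction and dye to 8 arrays, with 4 residual and 4.36 prior degrees of freedom, and was tested on simulated data. A gene is its brightest probe. Of the list genes named, Gsk3b and Foxo3 have 3 probes each and Gins2 has 2, and readings of their other probes are not given here. Named genes are all members, at most 4 called genes per pathway list and comparison by size, and the 5 nearest to the member with the smallest adjusted p for time. Foxo3, Gins2, Lin37, Mybl2, Foxm1 and the cell type markers were added after their values were seen. Alternatives were pair averaging, a random block, background, normalization, dye, prior, filter, probe, fold and leave-one-out settings. Print-tip loess was among them, and direct arrays only was added after seeing the data.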

Additional observations from a re-analysis of the deposited data

How the results depend on the processing

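No member reversed its direction past the threshold under any of the alternatives tried. Of the single member ratios under them 1003 kept their side of the threshold, 53 lost a call and 34 gained one. Most of these ratios were of members not called in the main fit, and only its 4, 7 and 2 calls, given below, could be lost. The 1003 is therefore no measure of how firm the calls are. The count of members called for time in wild type (4) was 2 with dye-swap pairs averaged and 1 to 5 when each array was left out in turn. For time in Ser585Gly (7) it was 4 with direct arrays of each edge only and 0 to 7 when each array was left out. For the mutation at 0 h (2) it was 1 with pairs averaged, 0 with direct arrays only and 0 to 2 when each array was left out. It was 5 with the pair as a random block, beside 3385 of all probes against 886 in the main fit. It was also 5 with print-tip loess, beside 9.37% of probes, and with loess and scaling between arrays. It was 4 with no background subtraction, plain subtraction, the deposited value table, an intensity trend in the prior, the filter on dim probes and the mean over all probes. For the mutation at 12 h (0) it was 1 with the random block and with loess and scaling, 2 with print-tip loess, 4 with the deposited table and 0 to 1 when each array was left out. It stayed 0 for the interaction in every alternative that could be fitted there. The cause of these shifts was not tested. Counts over all probes are not given here for the background, scaling, deposited table, trend, filter, probe mean and direct-array settings. Member counts under those settings therefore cannot be set beside a share of all probes. Over all probes, the main counts of 2061, 2277, 886 and 374 (time in wild type and Ser585Gly, mutation at 0 h and 12 h) became 1069, 1344, 277 and 155 with pairs averaged and 4183, 4306, 3385 and 1133 with the random block, whose correlation within pairs was −0.326. When each array was left out they ran from 411 to 3302, 269 to 3430, 110 to 637 and 68 to 627. No paired analysis was possible because the replicate numbers name dye orientations and the labels do not pair samples across edges.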
